A study of Allium sativum with 18 samples.

Results

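Dormant garlic bulbs were compared between their parts, the basal clove and the storage clove. The 6 libraries labelled as dormant, 3 of basal and 3 of storage clove, were chosen by their labels out of 18 libraries in the series, and 30530 of the table's 57561 gene IDs had values high enough to be tested. A further 16255 IDs stood at 0 in every library. All libraries were made from bulbs of garlic (*Allium sativum*) labelled Chalingzipisuan, and the tissues were parted by hand. The other 12 libraries hold the same tissues, 3 libraries each, at enlarging growth and at germination, when shoots were shorter than 5 cm. No treatment or genotype difference is given between groups, and the sources used here do not state the age of the bulbs, the number of bulbs in a sample or where the cut was made. The replicates are called biological by the submitters. The sources do not say whether each came from its own bulb or plant, so p-values measure the spread between these samples.

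A garlic clove is a bud wrapped in a swollen storage leaf. The storage leaf holds carbohydrate, mostly as fructans, and the sulfur compounds that give garlic its flavour. Near the base of the clove lie the stem tissue and the growing points that later give roots and shoot, and in a dormant bulb they do not grow even under favourable conditions. The table pairs no gene ID with a name, and no annotation was used here. The labelled tissues could therefore not be checked against marker genes, the genes cannot be grouped by pathway, and at most 2 genes in each direction are named by ID. In whole tissue pieces, fewer cells of a type and less RNA per cell cannot be told apart.

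Levels are FPKM, fragments scaled to the length of the gene model and to the library total, as deposited by the authors. Basal libraries held 19611684 to 20897436 reads over all genes and storage libraries 6540146 to 7155009, a mean ratio of 2.93. For a gene with 1 kb of coding length, 3 reads were worth 0.144 to 0.153 FPKM in basal and 0.419 to 0.459 FPKM in storage libraries. Replicates resembled each other closely, with Spearman correlations of 0.973 to 0.989 over the 6 pairs within a tissue and of 0.823 to 0.842 over the 9 pairs between tissues. The median SD of a gene over 3 replicates was 0.127 in basal and 0.177 in storage clove on the log2(FPKM + 1) scale, and 0.172 and 0.180 when all libraries were thinned to the same number of reads.

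The tissues differed in a large share of the genes tested. Of 30530 genes tested, 17615 passed a limma adjusted p below 0.05, or 57.7%. With no filter on low values, 18237 of 41306 genes passed. Higher levels in basal clove were called for 10557 genes (34.6%) and lower levels for 7058 (23.1%). A difference of 1 or more on the log2 scale was called for 5672 genes higher in basal clove (18.6%) and for 2185 genes lower there (7.16%). The 3 basal values all lay above the 3 storage values for 11713 genes (38.4%), and all lay below them for 8149 genes (26.7%). Ratios were modest for most of the 23528 tested genes, called or not, with a mean of at least 1 FPKM in both tissues. Their ratio of basal to storage means had a median of 1.02, and the middle range from the 25th to the 75th percentile ran from 0.711 to 1.56. The 5th percentile lay at 0.381 and the 95th at 4.58. Genes with a lower mean in either tissue, among them those read in 1 tissue alone, are left out of these ratios.

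The balance of directions depended on how the libraries were scaled. Genes higher in basal clove made up 59.9% of calls as deposited. Scaling by median ratios made this 54.6% and quantile normalization 43%. Among calls of 1 or more on the log2 scale they made up 72.2% as deposited, and 52.7% once quantile normalized. The median tested gene differed by 0.10 on the log2 scale as deposited and by -0.16 once quantile normalized.

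**Figure D1:**
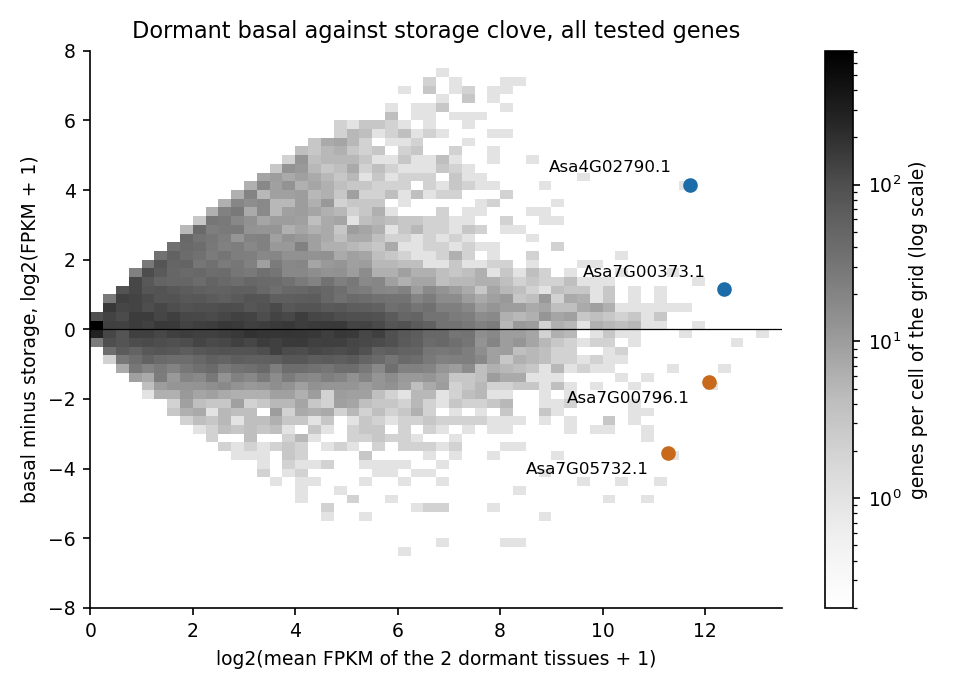
Difference between dormant basal and storage clove (vertical axis, log2(FPKM + 1), positive values higher in basal clove) against mean level (horizontal axis, log2(mean FPKM + 1)) for the 30530 tested genes, drawn as a grid whose grey shade gives the number of genes on a log scale. The cloud reaches further above 0 than below it, and the 4 named genes lie towards its right-hand end, 2 above 0 (blue) and 2 below (orange).

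The 4 genes named here were taken for the largest differences in FPKM among called genes whose groups did not overlap, so that their calls and separation at dormancy follow from the choice. The gene with the largest difference in amount was Asa4G02790.1, with a coding length of 993 bp. Its level was 6912.7, 6056.1 and 6095 FPKM in the 3 basal libraries and 288.1, 377.3 and 410.8 FPKM in the 3 storage libraries. It was the third most abundant gene in each basal library and ranked between 351 and 548 in the storage libraries, and the groups did not overlap. The means of 6354.6 ± 483.7 and 358.7 ± 63.4 FPKM (SD, n = 3) differed 17.7-fold, or by 4.16 on the log2(FPKM + 1) scale (SE 0.37, limma adjusted p = 7.7e-08), which is 4.05 above the median of all genes. This gene alone held 1.02% of the summed absolute difference between the tissues over all genes.

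Asa7G00373.1, of 1344 bp, was abundant in both tissues. It stood at 7356.7, 7241.1 and 7303.3 FPKM in basal clove, where it ranked 2 in every library, and at 3269, 3427.7 and 3195.9 FPKM in storage clove, where it ranked 11 to 13. The basal values were tightly grouped and all far above the storage values. The difference was 2.21-fold and 1.15 on the log2 scale (SE 0.08, limma adjusted p = 3.9e-09), or 1.04 above the median of all genes.

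In the other direction, Asa7G05732.1, of 576 bp, stood at 398.8, 397.1 and 365.8 FPKM in basal clove and at 4784, 3845.9 and 5028.3 FPKM in storage clove. Storage replicate 2 was the lowest of its group and still far above every basal library. It ranked between 5 and 7 in storage libraries and between 364 and 386 in basal ones. It was 11.8-fold lower in basal clove, by -3.54 on the log2 scale (SE 0.13, limma adjusted p = 1.9e-11), and by -3.65 relative to the median of all genes.

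Asa7G00796.1 has a coding length of 237 bp. It stood at 2235.4, 2212.9 and 2240.3 FPKM in basal and at 6258.7, 6414.5 and 6481.5 FPKM in storage clove, where it ranked 4 in each library. Replicates of either tissue lay close together and the groups were far apart. The storage mean of 6384.9 ± 114.4 FPKM was 2.86 times the basal mean of 2229.5 ± 14.6 FPKM (SD, n = 3), a difference of -1.52 on the log2 scale (SE 0.08, limma adjusted p = 2.2e-10), or -1.62 relative to the median of all genes. The call and direction of these 4 genes at dormancy held in each of the 21 alternatives run for each gene.

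The same genes were read in the 12 libraries of the other stages, which share none with dormancy. Over all tested genes, the tissue difference at dormancy differed from that at the enlarging stage for 28.6% and from that at germination for 42.6%. Since the named genes were chosen for their gap at dormancy, a gap that is larger there than at another stage is favoured by the choice, and the p-values of these comparisons do not allow for it. Asa4G02790.1 was higher in basal clove at all stages, with 6825.4 ± 597.6 against 625.2 ± 366.9 FPKM when enlarging and 5910.1 ± 1481.5 against 440 ± 291.1 FPKM at germination (SD, n = 3). Its tissue difference at dormancy exceeded that at the enlarging stage by 0.56 (SE 0.53), with a limma adjusted p of 0.46. In enlarging storage clove replicate 2 stood high, with 1048.6 FPKM where the other libraries had 399.6 and 427.4 FPKM. Without that library the excess was 0.117, and it was 1.01 once quantile normalized. The excess over germination was 0.26 (limma adjusted p = 0.73). It was 0.038 without basal germinating replicate 3, 0.106 without storage dormant replicate 1 and 0.018 under median-ratio or quantile scaling. None of these values for Asa4G02790.1 was called. Asa7G00373.1 was also higher in basal clove at the other stages, by 0.58 when enlarging (limma adjusted p = 1.4e-05) and by 0.28 at germination (limma adjusted p = 0.0062), with the deposited values. Its difference was larger at dormancy than when enlarging by 0.57 (SE 0.11, limma adjusted p = 0.0013) and larger than at germination by 0.87 (SE 0.11, limma adjusted p = 1.5e-05). Once quantile normalized, both the gap at dormancy and its excess over the enlarging stage were 1.16, which leaves no gap when enlarging.

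Both genes that were lower in dormant basal clove were lower there at the other stages too. Asa7G05732.1 stood at 5453.2 ± 682.9 FPKM in enlarging and 902.1 ± 154.5 FPKM in germinating storage clove, against 635 ± 59.6 and 546.7 ± 60 FPKM in basal clove (SD, n = 3). Its tissue difference at dormancy was more negative than at germination by -2.83 (SE 0.19, limma adjusted p = 2.2e-08). Against the enlarging stage the change was -0.45 (SE 0.19, limma adjusted p = 0.091), and -0.56 with an adjusted p of 0.036 without storage dormant replicate 2. It was -0.21 once quantile normalized (limma adjusted p = 0.39). Asa7G00796.1 had a gap at dormancy that was more negative by -1.13 than when enlarging (SE 0.11, limma adjusted p = 3.5e-06) and by -0.56 than at germination (SE 0.11, limma adjusted p = 0.00067). After quantile normalization the former became -0.465 (limma adjusted p = 0.027), and the latter became -0.205 and was then not called (limma adjusted p = 0.30).

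**Figure D2:**
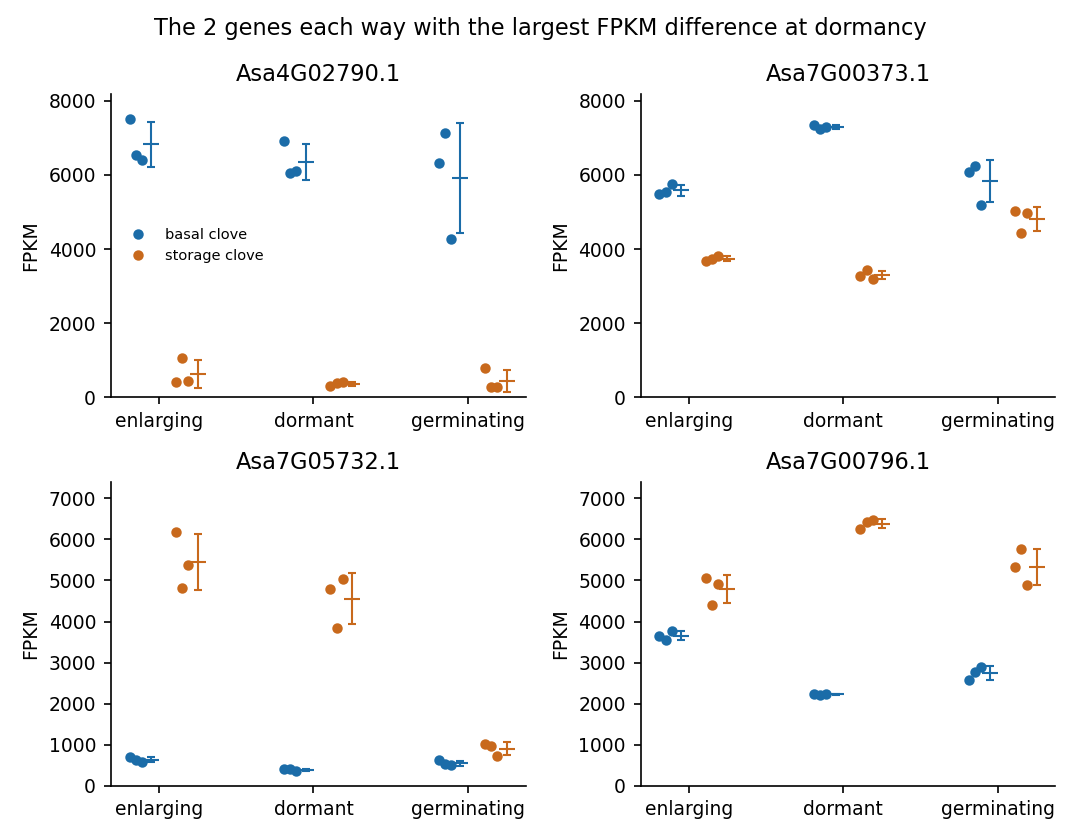
FPKM (vertical axis) of the 2 genes with the largest difference in each direction at dormancy, in basal (blue) and storage clove (orange) at the 3 stages, with 1 point per library and the mean ± SD of 3 libraries beside the points. At dormancy the 3 basal points lie above the 3 storage points in the upper panels and below them in the lower panels, as the choice of these genes required.

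Few genes carried much of the difference in amount, and few also held much of the FPKM itself. The absolute differences between tissue means summed to 587151 FPKM over the 37628 genes with any value at dormancy, and 752 genes held 50% of it. The 1000 most abundant genes of a library held a mean of 46.6% of the summed FPKM in basal and 48.2% in storage clove. The 752 genes are therefore no sign that the difference is more concentrated than expression. The 5672 genes called higher by at least 1 made up 24.5%, 24.2% and 22.9% of the summed FPKM of the basal libraries and 6.05%, 6.47% and 6.31% of the storage libraries. The 2185 genes called lower by as much made up 21.8%, 21.8% and 22% of the storage libraries and 5.75%, 5.78% and 6.33% of the basal libraries. Both sets were chosen on these values, so the shares describe their size only. The set higher in storage clove thus held a similar share of its tissue's FPKM with fewer genes.

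Differences of 10-fold or more also occurred among abundant genes. Of 1989 genes with a basal mean of at least 100 FPKM, 149 were at least 10 times as high as in storage clove, and the lowest storage level among them was 0.154% of the basal level. Of 1959 genes with a storage mean of at least 100 FPKM, 44 were at least 10 times as high as in basal clove, and the lowest basal level was 0.4% of the storage level. No gene at or above 100 FPKM in 1 tissue was therefore at 0 in the other. Each set was picked for a high level in the tissue that was then found higher, which favours such ratios. The excess towards basal clove was also not limited to abundant genes. Among all 30530 tested genes, 949 had a call towards basal clove of 3 or more (log2), and 128 had one towards storage clove.

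More genes were detected in basal than in storage clove, also at equal depth. As deposited, 34308, 34396 and 34470 genes had at least 1 read in the basal libraries and 29422, 30136 and 29897 in the storage libraries. After each library was thinned to 6540146 reads, the counts were 31967, 31893 and 32087 in basal and 29422, 29935 and 29721 in storage clove. Each basal library thus lay above each storage library, and the gap of 4573 genes became 2290 at equal depth. With at least 10 reads at equal depth the means were 23293 ± 178 and 21133 ± 217 genes (SD, n = 3). An exact two-sided permutation test gave p = 0.1 for each of these counts, the smallest that 3 against 3 libraries allow, and 0.1 after adjustment over 12 library measures.

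How strongly the most abundant genes dominated depended on the unit. The 10 most abundant genes held 4.64%, 4.49% and 4.74% of the summed FPKM in basal and 5.10%, 5.12% and 5.15% in storage clove. Counted in reads, which favours long genes, the top 10 held 5.70%, 5.42% and 5.83% in basal and 3.56%, 3.63% and 3.57% in storage clove, the opposite order. The same reversal held for the top 100, with 16.8% against 18.3% of FPKM and 15.5% against 14.7% of reads. The top 1000 held less in basal clove in both units, 46.6% against 48.2% of FPKM and 42.9% against 45.5% of reads. The groups did not overlap in any of these measures (exact permutation p = 0.1 each, adjusted p = 0.1). The FPKM-weighted mean coding length was 911 ± 8.57 bp in basal and 948 ± 4.94 bp in storage clove (SD, n = 3; exact permutation p = 0.1).

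**Figure D3:**
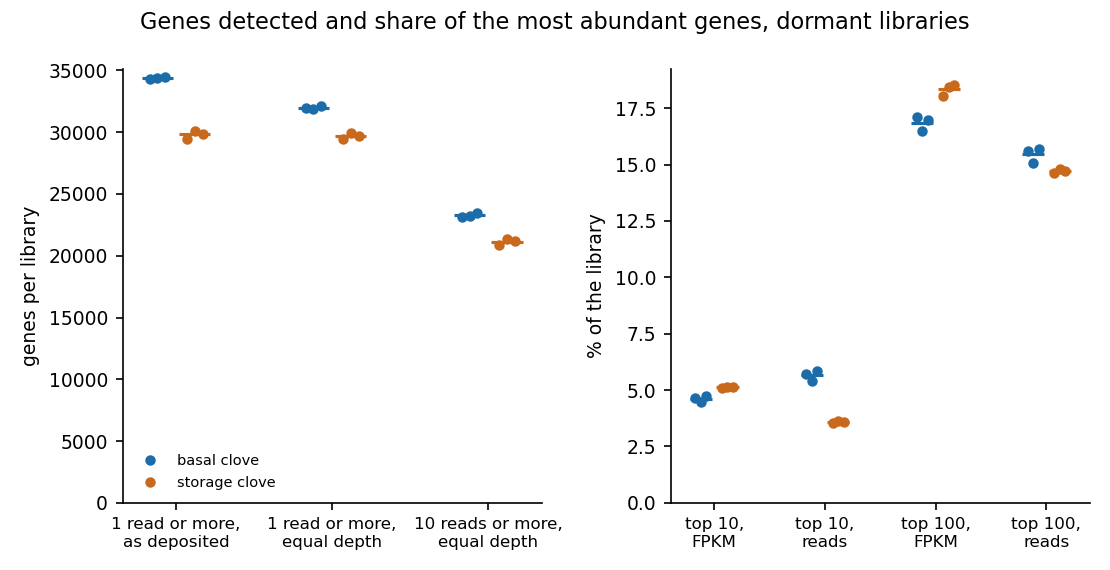
Left, genes per dormant library with at least 1 read as deposited, and with at least 1 or 10 reads after thinning to equal depth. Right, share of the 10 and 100 most abundant genes in the summed FPKM or in the reads. Points are libraries and short horizontal lines are means of 3. Basal clove (blue) lies above storage clove (orange) in all detection counts, while the order in the right-hand panel differs between FPKM and reads.

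Some genes were read in 1 tissue alone. At dormancy 352 genes had at least 1 FPKM in all 3 basal libraries and no read in the 3 storage libraries, while 5 genes showed the opposite. The coding length of a gene with few reads is the smallest that gives whole reads, so it may be too short, and a longer one would only lower the floor used next. The 352 genes were low, with mean basal levels from 1.1 to 59.9 FPKM and a median of 3.06 FPKM, and with a median coding length of 472 bp. Over 20771648 storage reads, 3 reads for such a gene would have been worth 0.306 FPKM at the median and 2.09 FPKM at most, which makes the median gene at least 12.4-fold higher in basal clove and the extreme one at least 296.2-fold. This floor is taken over the 3 libraries together and covers counting error only. The 5 genes read only in storage clove had means from 1.5 to 5.4 FPKM.

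These counts require at least 1 deposited FPKM in all libraries of 1 tissue and no read in all of the other. Thinning the reads or leaving out a library can therefore only raise them. With the libraries thinned to equal depth, 368 genes lacked reads in storage clove and 19 lacked them in basal clove. The former count was 455, 558 and 512 without storage dormant replicates 1, 2 and 3. The latter was 7 to 12 with any 1 library left out, with 10 or more without each of the basal libraries and without storage replicates 1 or 2. The same count at equal depth gave 95 genes in enlarging and 205 in germinating bulbs with no read in storage clove, and 32 and 7 with none in basal clove. Of the 352 genes, 213 had at least 1 FPKM in all 3 enlarging basal libraries and 189 in all 3 germinating ones. In storage clove 63 of them had no read when enlarging and 70 had none at germination, and 25 and 22 reached 1 FPKM in all 3 libraries there. The 352 genes were chosen for having no read in dormant storage clove, which favours fewer genes without reads at the other stages. Storage libraries of those stages were also deeper, with 10383944 to 12988262 reads each against 6540146 to 7155009 at dormancy.

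With the deposited values, the direction of the difference was related to how abundant a gene was. When the tested genes were parted by mean dormant FPKM into quintiles of 6106 genes, 27% of the lowest quintile (up to 1.74 FPKM) were called higher in basal clove and 6.4% lower. In the second quintile, up to 5.47 FPKM, the shares were 37.8% and 14.8%, and in the middle one, up to 13.6 FPKM, 36.5% and 22.3%. In the fourth they were 34.7% and 32.1%, and in the highest, above 34.8 FPKM, 36.8% and 39.9%. As deposited, the excess of genes higher in basal clove thus became smaller with level from the second quintile on. Lower calls were the more frequent in the highest quintile. For differences of 1 or more (log2) as deposited, higher calls were the more frequent in each quintile, with 14.8% against 2.1% in the lowest and 13.3% against 11.6% in the highest. The median gene of the lowest quintile had 28 reads over the basal and 5 over the storage libraries. That quintile starts near 0 FPKM, since genes could pass the filter through the other stages alone. With the filter on the 6 dormant libraries 26988 genes were tested, and the quintiles were not drawn again for these. At equal depth that quintile had 20.8% higher and 4.9% lower calls, and the highest had 35.3% and 38.5%. Median-ratio scaling kept the direction of the relation, with 25.1% higher and 6.7% lower calls in the lowest quintile and 32.9% and 45.1% in the highest. Lower calls were then the more frequent in the fourth quintile too, with 31.5% higher and 37.5% lower. In the highest they were also the more frequent for differences of 1 or more (log2), with 12.1% higher and 13.7% lower. Quantile normalization, which gives all libraries the same distribution of values, turned the balance in the lowest quintile to 12.6% higher and 21.4% lower. Lower calls were then the more frequent in each quintile, with 35.9% higher and 41.6% lower in the highest, so the relation depended on the scaling.

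Coding length showed a weaker relation. Of the shortest quintile, 69 to 382 bp, 31.2% were called higher in basal clove and 17.3% lower. Of the longest, 1449 to 13326 bp, 32.9% were higher and 32.1% lower. For differences of 1 or more (log2) the shares were 20% and 7.6% in the shortest and 16.3% and 6.9% in the longest quintile. Lengths of genes with few reads may be too short, which bears most on the shortest quintile. Longer genes also had more reads, with a median of 474 over the storage libraries in the longest and 31 in the shortest quintile, and the part that this had in the relation was not tested. At equal depth the shortest quintile had 26.4% higher and 14.4% lower calls and the longest 30.3% and 29.4%. After quantile normalization the balance turned in both, to 23% higher and 27.2% lower calls in the shortest and to 24.6% and 44.4% in the longest quintile.

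**Figure D4:**
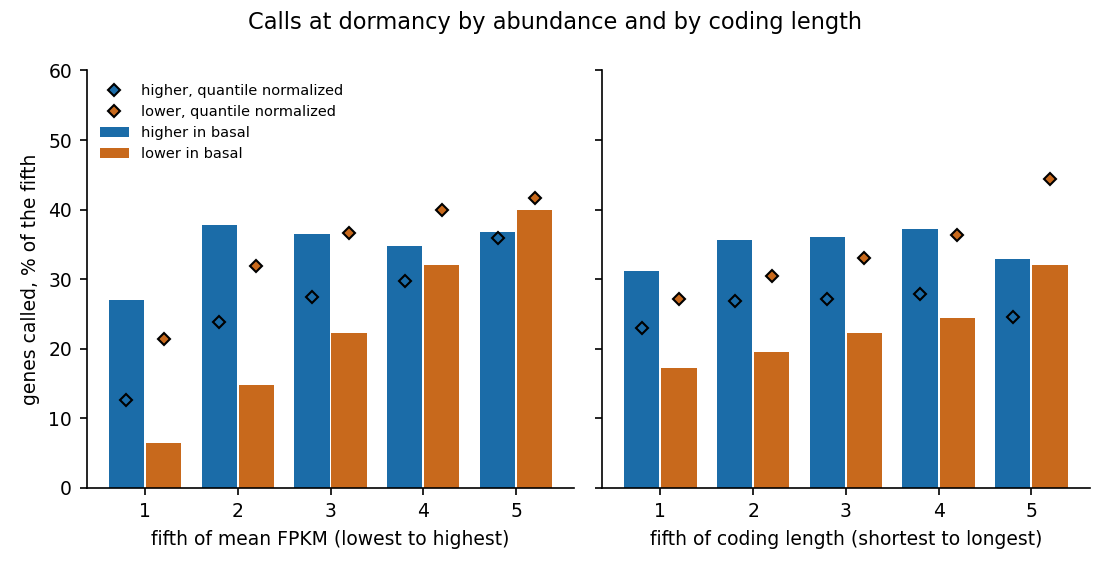
Share of genes called higher (blue) or lower (orange) in dormant basal clove, in % of each quintile of mean FPKM (left) and of coding length (right). Bars show the deposited values and diamonds the values after quantile normalization. With the deposited values the share of lower calls grows from 6.4% in the lowest to 39.9% in the highest quintile of level.

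Genes with neighbouring IDs tended to differ in the same direction. Among 18590 pairs of tested genes with consecutive IDs, both were higher in basal clove by at least 1 on the log2 scale in 5.79%, against 3.6% of 16387 pairs 50 IDs apart, 1.61 times as often. Both were lower by as much in 1.59% of consecutive pairs and in 0.52% of pairs 50 IDs apart, 3.03 times as often. At a distance of 2 IDs the shares were 4.16% and 0.72%, and from 10 to 100 IDs they lay between 3.4% and 3.6% and between 0.52% and 0.65%. After quantile normalization the same comparison of consecutive with distant pairs gave 1.76 and 2.11 times. The sources used here do not state whether consecutive IDs are adjacent genes, or whether reads were shared between similar neighbours.

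**Figure D5:**
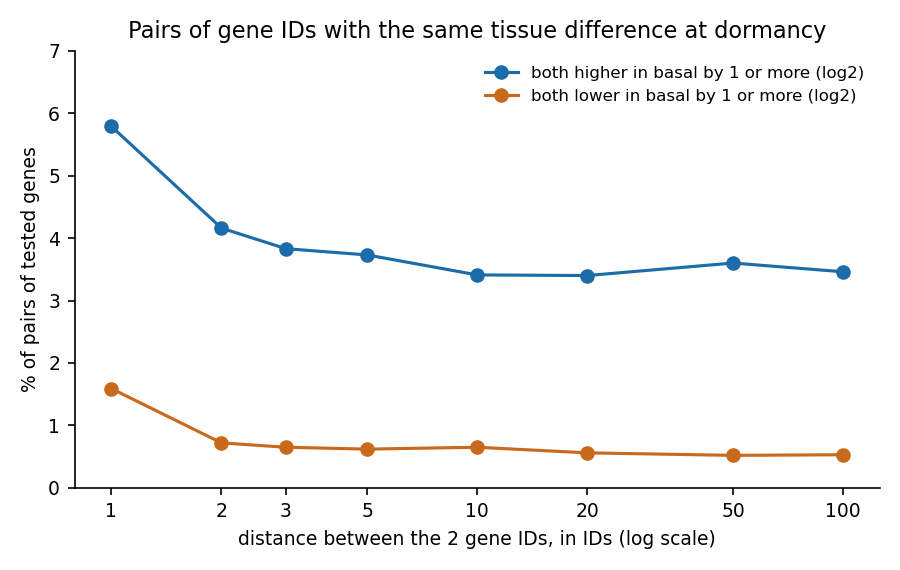
Share of pairs of tested genes (vertical axis, %) in which both were higher (blue) or both lower (orange) in dormant basal clove by at least 1 on the log2 scale, against the distance between their IDs (horizontal axis, log scale). Consecutive IDs stand at 5.79% and 1.59%, and pairs 50 IDs apart at 3.6% and 0.52%.

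Of the 5672 genes higher by at least 1, 1921 (33.9%) lay in runs of 2 or more consecutive IDs, and of the 2185 lower genes 552 (25.3%) did. Runs of 4 or more numbered 36 among higher and 5 among lower genes. Of all tested genes, 18.6% were higher and 7.16% lower by as much, and the larger share gives more and longer runs by itself. The number of runs to be expected from these shares was not computed, so the counts do not compare the directions. The runs described next were chosen as the longest or most abundant after the values were seen, and their levels are a description. The longest run of lower genes with the highest level held 4 IDs with coding lengths of 381, 441, 618 and 267 bp. Their mean levels in storage clove were 2988.2, 1775.2, 2040.9 and 1778.6 FPKM, which were 5.39, 5.68, 5.9 and 6.33 times those in basal clove. Summed over the 4 IDs, dormant storage libraries held 8659.2, 8772.8 and 8316.7 FPKM and dormant basal libraries 1463.2, 1437 and 1581.1 FPKM, with no overlap. The sums were 8404.3 ± 713.3 FPKM in enlarging storage clove, 2160.7 ± 88 in enlarging basal clove, 145.1 ± 40.4 in germinating storage clove and 101 ± 6.5 in germinating basal clove (SD, n = 3).

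In the other direction, 4 runs held 6 or more IDs. The most abundant of these had 6 IDs of similar coding length, between 441 and 522 bp. Mean levels in dormant basal clove were 257.7, 148.1, 22.5, 326.8, 68.4 and 14.2 FPKM in ID order, and in storage clove 13.6, 14.9, 0, 2.84, 0.53 and 0.09 FPKM, the 0 standing for no read in the 3 libraries. Summed over the 6 IDs the basal libraries held 927.3, 919 and 666.8 FPKM and the storage libraries 31.5, 33.9 and 30.5 FPKM. Basal replicate 3 was the lowest of its group, and the groups did not overlap. When enlarging, the sum was 260.7 ± 34.6 FPKM in basal and 39.9 ± 10.8 in storage clove, and at germination 848.2 ± 327.5 and 45.7 ± 23 FPKM (SD, n = 3). The longest run held 7 IDs of 207 to 3528 bp, with sums of 131.5, 126.2 and 126.9 FPKM in basal and 17.6, 21.5 and 17.7 FPKM in storage clove.

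Much of the dormant difference was also present at the other stages, whose libraries are separate but whose spread is estimated in the same fit. Of the 10557 genes higher in dormant basal clove, 61.7% were called higher when enlarging as well, and 50.4% at germination. Of all tested genes, 51.5% were called when enlarging, 28.7% as higher, and 60.5% were called at germination, 25% as higher. These shared genes made up 74.4% of the list called higher when enlarging and 69.7% of the list at germination. Opposite calls were made for 4.9% of the dormant list when enlarging and for 10.5% at germination.

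Of the 7058 genes lower in dormant basal clove, 58.7% were called lower when enlarging, against 22.8% of all tested genes, and 73.7% at germination, against 35.4%. They made up 59.4% and 48.1% of the lists at those stages. Opposite calls were made for 4.9% and 6.5%. Among genes that differed by at least 1 at dormancy, the same call was made when enlarging for 79.2% of higher and 73.5% of lower genes, and their median difference there was 1.15 and -0.90. At germination the same call was made for 66.8% of these higher and 70.5% of these lower genes, and the opposite call for 3.8% and 8.3%. Fits on the 6 libraries of each stage alone, which share no estimate of the spread, gave 62% of higher and 59.4% of lower genes when enlarging. They gave 46.1% and 64.2% at germination. In these fits 29.6% of all tested genes were called higher and 23% lower when enlarging, and 22.5% and 29.3% at germination. After median-ratio scaling the shares at germination were 59.9% of higher and 63% of lower genes, against 28.9% and 28.7% of all tested genes.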

How the data were processed

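The authors deposited 1 table of FPKM values with 1 column per library. Per the submitters' processing notes HISAT2 was used. The version used, the counting tool, the reference and annotation and the strand setting are given in no source used here, so genes that overlap or resemble each other may share reads. Total RNA was made into libraries with an Illumina kit, per the labels' protocols.

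Whole reads and coding lengths were recovered from the steps in the FPKM values: 100% of 595800 values above 0 came out whole within 0.01 reads, and 95.2% of lengths of genes with over 100 reads were multiples of 3. The length was taken as the smallest that gave whole reads in all libraries, which favours whole values. For genes with few reads the true length and read number may be larger. The reads sum to at least 99.99% of each library total.

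Genes with at least 1 FPKM in at least 3 of 18 libraries were tested on log2(FPKM + 1), a scale that understates changes of low genes, with limma 3.58.1 in R 4.3.3. One fit of 6 group means over 18 libraries (12 residual degrees of freedom) gave all contrasts, with Benjamini-Hochberg adjustment over all 30530 genes. Library measures were compared by exact permutation tests (scipy 1.17.1). Named genes were the 2 in each direction with the largest difference of mean FPKM among called genes without overlap. Gene lists by function could not be applied without names. The members and lists were chosen with earlier results of these data known. No replicate pair agreed within sampling noise (chi-square per gene 2.68 to 6.01). Alternatives covered pseudocount, filter, scaling, depth, weights, the replicate block and left-out libraries.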

Additional observations from a re-analysis of the deposited data

Results flagged for a closer look

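The tissue difference of 3 of the 4 named genes differed between dormancy and another stage by a test of the difference itself. These genes were chosen for their gap at dormancy, which favours a larger gap there, and the test does not allow for that choice. For Asa7G00373.1 it was larger at dormancy by 0.57 on the log2 scale than when enlarging, and by 0.87 than at germination. For Asa7G05732.1 it was more negative at dormancy than at germination by -2.83. For Asa7G00796.1 it was more negative at dormancy by -1.13 than when enlarging, and by -0.56 than at germination, or by -0.465 and -0.205 once quantile normalized. Over all tested genes, the same test called 28.6% against the enlarging stage and 42.6% against germination.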

How the results depend on the processing

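Low genes rested on few reads in storage clove, where the median gene of the lowest quintile of level had 5 reads against 28 in basal clove. At equal depth 5592 genes were higher and 2294 lower by 1 or more (log2), against 5672 and 2185 as deposited. With a pseudocount of 5, which compresses low values, 2897 genes differed upward and 1216 downward by 1 or more (log2). Quantile normalization gave 3663 genes lower by at least 1. It also gave 770 higher and 1306 lower calls in the lowest quintile of level, 1660 lower calls in the shortest quintile of length, and 636 pairs of consecutive IDs both higher and 569 both lower, against 1076 and 296 with the deposited values. The share of reads in place of FPKM reversed the differences in the top 10 and top 100 to 2.07 and 0.725 percentage points, as reads also weigh genes by their length. Of genes with no read in 1 tissue, 84 (no read in storage clove) and 0 (no read in basal clove) remained at 5 FPKM or more, and 19 of the latter kind were found at equal depth. With 1 library left out there were 389 to 558 and 7 to 12, and by definition thinning or leaving out a library can only raise these counts. The cause was not tested for other changes. Leaving out 1 dormant library gave 16021 to 16793 calls. Same-numbered libraries of the tissues deviated with correlations of -0.01 to 0.02. With 3 libraries per tissue, these values cannot show whether same-numbered samples came from the same bulb. With the replicate block within each stage 16824 genes were called, and 16358 with the block in a fit on the dormant libraries. Voom on the recovered reads called 16098 genes and thinning to equal depth 15790. Of the results on single genes, 234 comparisons with an alternative kept the direction and side of the threshold, and 2 did not, both given in the text above. Alternatives on other stages' libraries, quintiles, neighbouring IDs and left-out libraries for genes without reads were added after seeing the data.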

Other observations

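The share of differing genes varied little between broad groups of IDs, although neighbouring IDs tended to differ in the same direction. Within each of the 9 groups of IDs that share a first digit, Asa0G to Asa8G, between 17.5% and 20% of the tested genes were higher in dormant basal clove by at least 1 on the log2 scale, and between 6.6% and 7.9% were lower.

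The lists of most abundant genes overlapped in part. Of the 10 genes with the highest mean FPKM in each dormant tissue 4 were shared, of the top 100 56 were shared, and of the top 1000 661. Among the 144 genes in the top 100 of either tissue, 69 had a call higher in basal clove and 49 a lower one. For differences of 1 or more (log2) the numbers were 23 and 36, the opposite balance from that over all genes. Of all tested genes, 34.6% were called higher and 23.1% lower, and 18.6% and 7.16% by 1 or more (log2). Genes entered this list through the tissue where they were abundant, which favours calls, so the numbers are a description.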
